A study of Mus musculus with 4 samples.

Results

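The levels of 6 DNA mismatch repair genes, MSH3, MSH6, MLH3, PMS1, PMS2 and EXO1, were followed in RNA sequencing counts from libraries labelled as Jurkat. Jurkat is a line of human leukaemic T cells known to be deficient in mismatch repair. The genes were chosen by name, and each had 1 row among the 58735 gene rows of the count table. The design text names a single comparison, cells knocked out for MATR3 with CRISPR-Cas9 against cells that were not. MATR3 encodes a nuclear matrix protein that binds RNA. The wild-type group and the group labelled knockout held 2 libraries each, all from cells kept in medium with fetal bovine serum. Whether the knockout cells were a single clone or a pool is not given in the sources used here. Separate cultures are not mentioned in the labels, so the spread that the p-values rest on is that between these 4 libraries and may be technical.

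Mismatch repair corrects base mispairs and small loops left behind by the replication machinery. Heterodimers of MutS homologues, containing MSH6 or MSH3, recognise the error. MutL heterodimers, containing PMS2, PMS1 or MLH3, then act on the DNA, and EXO1 digests the strand that carries the error before it is resynthesised by replication proteins. Cells without the pathway accumulate length changes in short tandem repeats, which is known as microsatellite instability.

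The libraries differed in more than their MATR3 label. Total counts were 15008554 to 17477643 per library, and 15294 genes were tested. MATR3 itself had 19 and 9 reads in the wild-type pair, against 42 and 61 in the pair labelled knockout. It was therefore higher, not lower, in the libraries labelled knockout (log2 fold change 2.05, SE 0.384, adjusted p = 2.85e-06, edgeR quasi-likelihood test). A second MATR3 row, which overlaps the first, held 1 to 5 reads per library. Reads of the overlap cannot be assigned with certainty, so the rows do not check the label. Of 12 T cell markers tested, 11 were lower and 0 higher, and their summed level was 3309 to 3559 CPM (counts scaled to a common library size) in the wild-type pair and 1404 to 1441 CPM in those labelled knockout. None of them was at 0 in any group. Of 12 myeloid markers, 11 were tested and 11 were higher, with summed levels of 95.9 to 98.4 CPM in the wild-type pair and 5962 to 6083 CPM in those labelled knockout. ELANE and CSF3R, both among these myeloid markers, had 0 reads in wild-type. Of 5 epithelial markers, the 2 tested were higher (summed level 10.9 to 13.03 against 122.3 to 123.2 CPM), with EPCAM and KRT19 at 0 in all libraries. Of 5 B cell markers, 1 of the 2 tested was higher and 1 lower (14.1 to 16.4 against 8.77 to 9.82 CPM), with MS4A1 at 0 in all libraries and PAX5 at 0 in wild-type. All 4 libraries are labelled as Jurkat, and whether those labelled knockout come from the same cell line as the wild-type pair was not tested. Each fold change below is therefore a difference between these libraries, which cannot be assigned to the loss of MATR3. The part of the marker differences in the results that follow was not tested, and fewer cells of a type cannot be told apart from less RNA per cell.

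MLH3 and PMS1, which encode alternative MutL subunits, were higher in the libraries labelled knockout, and the other 4 genes did not pass the test. MLH3 was close to undetected in the wild-type pair and stood near 5 CPM in those labelled knockout, whereas PMS1 differed by less than 2-fold. By edgeR's quasi-likelihood test at an adjusted p of 0.05, 2 of the 6 genes were called, both higher and 0 lower. Across all genes tested, 66.0% were called, 33.7% higher and 32.3% lower, so being called was not unusual here. One member, MLH3, was both called and changed at least 2-fold, which held for 26.3% of all genes tested. The levels of the groups did not overlap for 4 of the 6 genes, against 82.0% of all genes tested. The median log2 fold change of the members was 0.04 and that of all genes tested was 0.02. The 6 genes summed to 97.9 and 109.5 CPM in the wild-type pair and to 105.9 and 111.3 CPM in those labelled knockout.

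**Figure D1:**
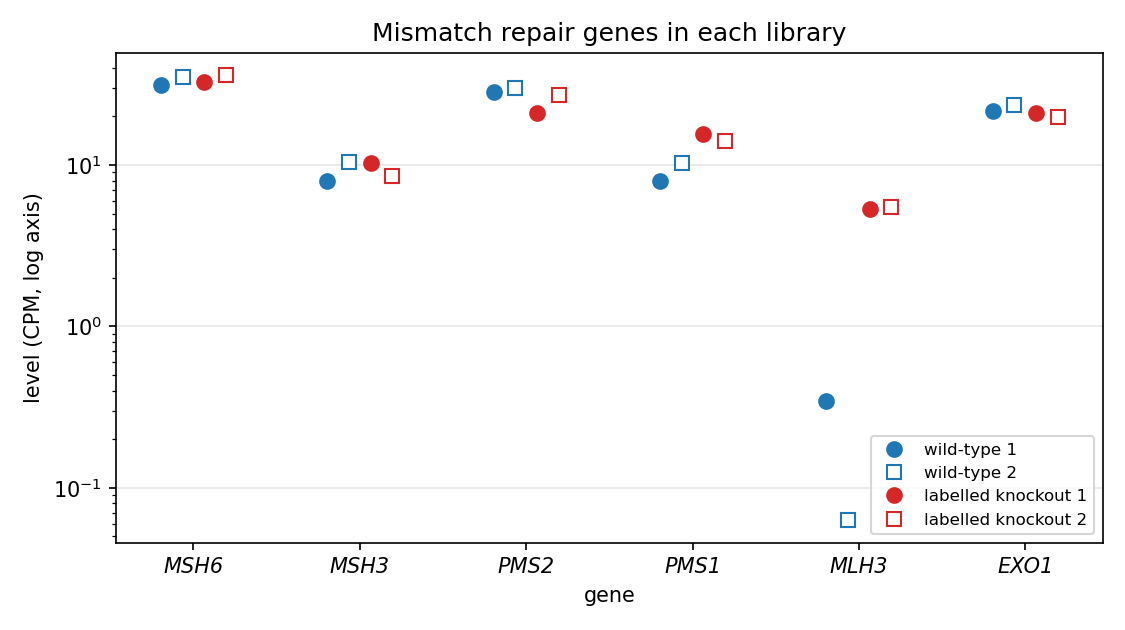
Level in CPM (log axis) of each of the 6 mismatch repair genes, with 1 symbol per library (blue wild-type, red labelled knockout; circles replicate 1, squares replicate 2). MLH3 stands at 0.344 and 0.0628 CPM in the wild-type pair and at 5.32 and 5.53 CPM in those labelled knockout, while the symbols of MSH6 and MSH3 interleave.

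The mispair recognition genes among the members, MSH6 and MSH3, did not separate the groups. MSH6 (ENSG00000116062, chromosome 2, 47695530 to 47810101, plus strand; the genome build of these and all other coordinates is not given in the sources used here) encodes the subunit for base mispairs and the smallest loops. It stood at 31.5 and 35.1 CPM in the wild-type pair and at 32.8 and 36.0 CPM in those labelled knockout, from 480 to 558 reads per library. Each group had 1 lower and 1 higher library, and the ranges overlapped. The log2 fold change was 0.05 (95% interval -0.18 to 0.28, adjusted p = 0.725, edgeR quasi-likelihood test), an interval that leaves out changes of 2-fold or more in either direction.

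The last 20786 bases of the MSH6 gene model are shared with FBXO11, a ubiquitin ligase subunit gene on the opposite strand. FBXO11 was higher, at 8.04 ± 1.15 CPM in the wild-type pair and 18.2 ± 2.31 CPM in the pair labelled knockout (SD, n = 2 each; log2 fold change 1.18, adjusted p = 1.10e-08, edgeR quasi-likelihood test). The strand setting of the counting is not given in the sources used here, so reads from the shared stretch cannot be assigned with certainty. With both rows added together, a choice made after seeing the data, the log2 fold change was 0.35 and passed the test (adjusted p = 0.00132, edgeR quasi-likelihood test).

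MSH3 (ENSG00000113318, chromosome 5, 80654648 to 80876460, plus strand), whose product recognises larger insertion and deletion loops, did not pass either. It stood at 7.98 and 10.4 CPM in the wild-type pair and at 10.3 and 8.50 CPM in those labelled knockout. The higher library of each group was level with the other's, and no difference was detectable (log2 fold change 0.03, 95% interval -0.35 to 0.41, adjusted p = 0.889, edgeR quasi-likelihood test). It had 126 to 166 reads per library, and its interval was the widest among the 4 genes that did not pass.

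Among the MutL subunit genes, MLH3 showed the largest difference of the 6 genes. MLH3 (ENSG00000119684, chromosome 14, 75013764 to 75051532, minus strand) encodes the subunit best known for resolving meiotic crossovers, with a minor part in mismatch repair. Wild-type replicates 1 and 2 had 6 and 1 reads, or 0.344 and 0.0628 CPM. Replicates 1 and 2 labelled knockout had 78 and 82 reads, or 5.32 and 5.53 CPM. The libraries labelled knockout lay close together, and both stood far above wild-type. The ratio of the summed reads was 25.8, with a 95% exact conditional interval of 12.3 to 65.3 that covers counting error only. The log2 fold change was 4.64 with an SE of 0.446 (adjusted p = 2.90e-15, edgeR quasi-likelihood test) and ranked at 445 from the top among the 15294 genes tested.

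The size of the MLH3 difference rested on very few wild-type reads. The log2 fold change was 3.93 without wild-type replicate 2 (adjusted p = 2.64e-07, edgeR quasi-likelihood test) and 6.28 without wild-type replicate 1 (adjusted p = 2.73e-09, edgeR quasi-likelihood test), whereas leaving out either library labelled knockout gave 4.62 or 4.67. The gene passed the expression filter only through the group in which it was high. A mean below 0.5 CPM in wild-type with at least 5 CPM in the libraries labelled knockout was found for 197 of the genes tested (1.29%), and the reverse pattern for 3.

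PMS1 (ENSG00000064933, chromosome 2, 189784085 to 189877629, plus strand) encodes a MutL subunit without a settled role in mismatch repair in human cells. It stood at 7.98 and 10.4 CPM in wild-type, from 139 and 165 reads. In the libraries labelled knockout it stood at 15.5 and 14.2 CPM, from 227 and 210 reads. Both libraries labelled knockout were above both wild-type libraries, and the gap between the groups was wider than the spread within either. PMS1 rose by 0.70 on the log2 scale (SE 0.177, 95% interval 0.34 to 1.05, adjusted p = 0.000408, edgeR quasi-likelihood test). Its ratio of summed reads was 1.62 (95% exact conditional interval 1.40 to 1.89, counting error only). Its neighbour ORMDL1, a regulator of sphingolipid synthesis that starts 286 bases away and runs in the opposite direction, was also higher, from 25.5 ± 5.82 to 36.2 ± 2.03 CPM (SD, n = 2 each; log2 fold change 0.51, adjusted p = 0.000283, edgeR quasi-likelihood test). The 2 gene models overlap over 287 bases, so reads there cannot be assigned with certainty.

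PMS2 (ENSG00000122512, chromosome 7, 5973239 to 6009125, minus strand), the main endonuclease subunit of mismatch repair, was the member closest to passing in the downward direction. It stood at 28.4 and 30.0 CPM in the wild-type pair and at 21.0 and 27.1 CPM in those labelled knockout. Replicate 1 labelled knockout was the lowest, and replicate 2 stood just under wild-type. The log2 fold change was -0.28 (95% interval before adjustment -0.54 to -0.02, adjusted p = 0.0563, edgeR quasi-likelihood test). It passed with limma voom (adjusted p = 0.0463), with a block on the replicate number (adjusted p = 0.0496, edgeR) and without replicate 2 labelled knockout (adjusted p = 0.0369, edgeR), and the value was -0.11 without replicate 1 labelled knockout (adjusted p = 0.657, edgeR).

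The PMS2 row is also uncertain because the gene has near-identical copies, between which reads can be split. The table held 11 rows of PMS2 pseudogenes, 9 of them with reads. Together these had 58.0 and 60.3 CPM in the wild-type pair and 53.4 and 59.8 CPM in those labelled knockout, more than PMS2 itself. They did not move together. PMS2CL was higher (17.4 ± 2.46 and 23.9 ± 0.617 CPM, SD, n = 2 each; log2 fold change 0.46, adjusted p = 0.0037, edgeR quasi-likelihood test). PMS2P1 was lower (29.1 ± 0.357 and 18.9 ± 1.67 CPM; log2 fold change -0.63, adjusted p = 3.74e-05, edgeR quasi-likelihood test). PMS2P10 also fell, and the other 3 pseudogenes tested did not pass. Added to its pseudogenes as 1 feature, PMS2 had a log2 fold change of -0.13 and did not pass (adjusted p = 0.151, edgeR quasi-likelihood test). AIMP2, a tRNA synthetase scaffold gene that starts 120 bases from PMS2 on the other strand, stood at 74.9 ± 2.70 and 70.8 ± 8.21 CPM and did not pass (adjusted p = 0.394, edgeR quasi-likelihood test).

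EXO1 (ENSG00000174371, chromosome 1, 241847967 to 241895148, plus strand), the exonuclease of the pathway, did not pass the test. It stood at 21.8 and 23.6 CPM in the wild-type pair and at 21.0 and 19.96 CPM in those labelled knockout. The groups did not overlap, yet wild-type replicate 1 and replicate 1 labelled knockout were close. The log2 fold change was -0.15 (95% interval -0.42 to 0.13, adjusted p = 0.355, edgeR quasi-likelihood test). EXO1 transcript is known to rise in dividing cells. Of 11 genes of the replicative helicase and of proliferation tested, 8 were lower and 2 higher (median log2 fold change -0.54). Over all genes tested, 32.3% were lower and 33.7% higher. Whether these genes and the EXO1 level are linked was not tested. MKI67 and TOP2A were the 2 that were higher, at log2 fold changes of 0.67 and 0.45.

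**Figure D2:**
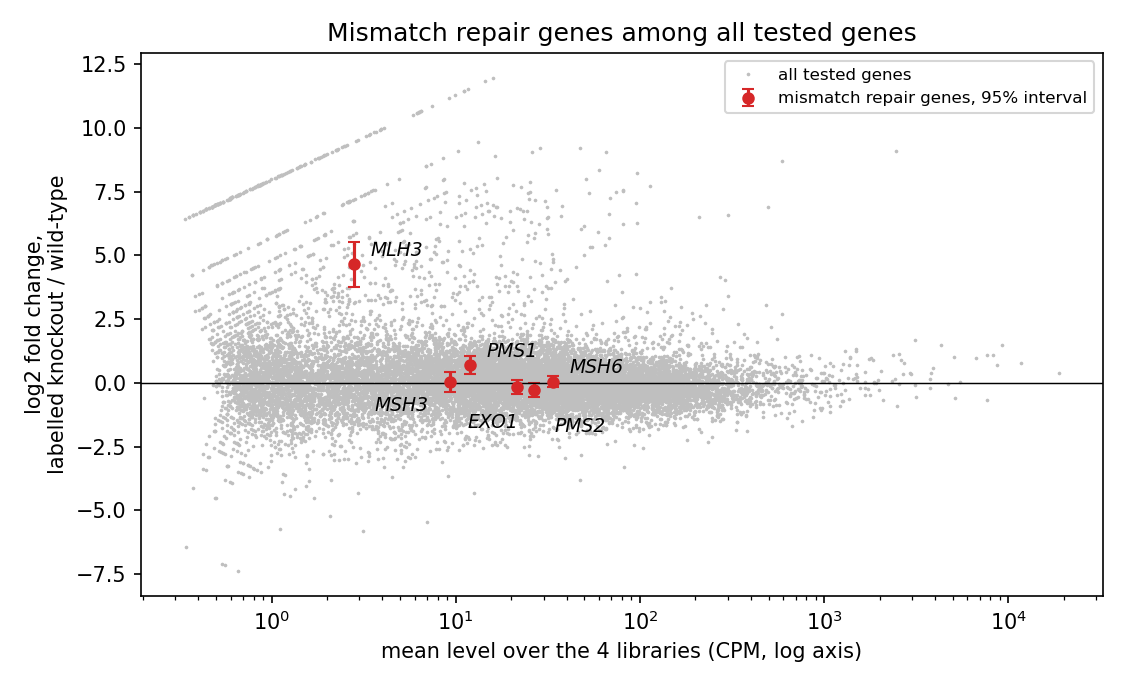
Log2 fold change of the libraries labelled knockout over wild-type (vertical axis) against mean CPM over the 4 libraries (horizontal, log axis) for all 15294 genes tested (grey) and for the 6 mismatch repair genes (red, bars are 95% intervals). MLH3 lies at 4.64, toward the upper edge of the grey points, PMS1 at 0.70, and the intervals of MSH3, MSH6 and EXO1 include 0.

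Levels were compared between genes per kilobase of the deposited gene model. The order between genes depends on these lengths, which run from 3936 bases for PMS2 to 10993 for MSH6. The lengths of the transcripts present were not measured, so another choice of length could change the order. The PMS2 row may also share reads with its pseudogenes, and the MSH6 row with FBXO11. In wild-type the order was PMS2 at 7.41 ± 0.288, EXO1 at 5.48 ± 0.318, MSH6 at 3.03 ± 0.231, MSH3 at 1.95 ± 0.367, PMS1 at 1.68 ± 0.309 and MLH3 at 0.0244 ± 0.0238 CPM per kilobase (SD, n = 2 each). The libraries of MSH3 and PMS1 overlapped, so these neighbours in the order were not separated. In the libraries labelled knockout PMS2 (6.11 ± 1.10), EXO1 (4.95 ± 0.18) and MSH6 (3.13 ± 0.21) kept the first 3 places. PMS1 (2.72 ± 0.172) now stood above MSH3 (2.00 ± 0.271), with no overlap between them, and MLH3 (0.649 ± 0.0176) remained last.

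**Figure D3:**
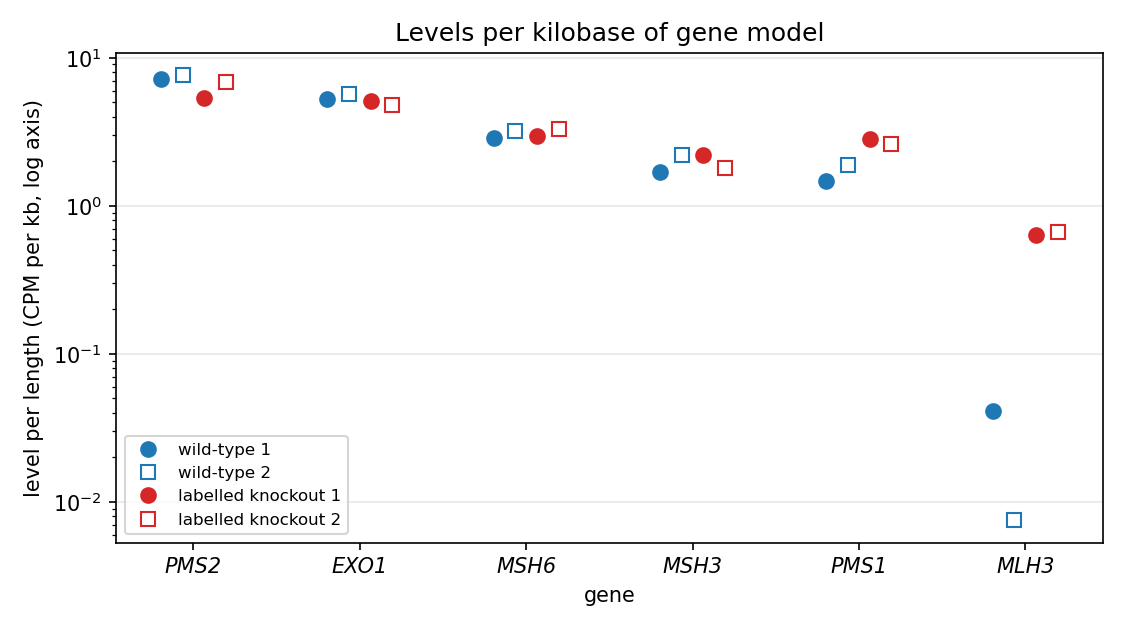
Level per length, in CPM per kilobase of gene model (log axis), of the 6 genes in each library (blue wild-type, red labelled knockout; circles replicate 1, squares replicate 2), ordered by the wild-type mean. With these deposited lengths, on which the order depends, PMS2 is highest and MLH3 lowest in every library. PMS1 passes MSH3 in the libraries labelled knockout.

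Ratios between members within a library compare the RNA levels of alternative subunit genes without any scaling between libraries. The balance of the proteins was not measured. Of the summed per-length level of PMS2, PMS1 and MLH3, PMS2 made up 82.7% and 79.96% in the wild-type pair and 60.6% and 67.9% in those labelled knockout. PMS1 made up 16.8% and 19.96% in the wild-type pair and 32.2% and 25.6% in the others. MLH3 made up 0.473% and 0.0789% in the wild-type pair and 7.22% and 6.52% in the others. All 3 shares were separated between the groups, with a lower share of PMS2 and higher shares of both alternatives in the libraries labelled knockout. The shares sum to the whole, so a higher share of PMS1 and MLH3 lowers that of PMS2, which itself did not pass the test. The wild-type shares of MLH3 rest on 6 and 1 reads, and the PMS2 row may share reads with its pseudogenes. The ratio of PMS2 to PMS1 was 4.92 and 4.01 in the wild-type pair and 1.88 and 2.65 in those labelled knockout. The ratio of the recognition genes, MSH6 to MSH3, was 1.69 and 1.44 in the wild-type pair and 1.36 and 1.82 in the others, so it overlapped. The exact permutation test on 2 against 2 libraries cannot give a two-sided p below 0.333, and this was its value for each of the 7 of 9 ratios examined that did not overlap (0.429 after Benjamini-Hochberg adjustment over the 9).

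Genes of the replication machinery that fills and seals the gap after excision were lower more often than higher. Of 16 replication partners, 15 were tested, 9 were lower, 3 were higher and 3 did not pass (median log2 fold change -0.47, against 0.02 over all genes tested). Over all genes tested, 66.0% were called and 32.3% were lower. The 9 include SSBP1, which encodes the mitochondrial single-stranded DNA binding protein and not a factor of nuclear repair. RPA1, the large subunit of the complex that coats single-stranded DNA, fell from 270.4 ± 10.4 to 125.5 ± 0.177 CPM (SD, n = 2 each; log2 fold change -1.11, adjusted p = 1.72e-23, edgeR quasi-likelihood test). PCNA, the sliding clamp that directs mismatch repair to new DNA, fell from 304.8 ± 12.4 to 149.9 ± 1.97 CPM (log2 fold change -1.02, adjusted p = 6.91e-22, edgeR quasi-likelihood test). RPA3 fell by 0.80 on the log2 scale. LIG1, the ligase that seals the nick, fell by 0.72, and the polymerase delta subunit gene POLD2 by 0.44.

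The clamp loader genes divided. RFC2 and RFC5 were lower, at log2 fold changes of -0.71 and -0.79. RFC1, the gene of the largest clamp loader subunit, was higher, from 30.3 ± 4.38 to 55.5 ± 0.172 CPM (SD, n = 2 each; log2 fold change 0.88, adjusted p = 1.42e-11, edgeR quasi-likelihood test). RFC3 and RFC4 were also higher, by 0.25 and 0.21, but neither passed without replicate 1 or without replicate 2 labelled knockout, with the DESeq2 Wald test, without an expression filter or without a composition factor. RFC4 also missed the threshold without wild-type replicate 1. POLD1, the catalytic polymerase subunit, did not pass (log2 fold change 0.11, adjusted p = 0.188, edgeR quasi-likelihood test), but it did without wild-type replicate 1 (log2 fold change 0.21, adjusted p = 0.000553, edgeR quasi-likelihood test). EXO1 relative to PCNA, per length, stood at 0.0261 and 0.0268 in the wild-type pair and at 0.0503 and 0.0469 in those labelled knockout.

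Of 8 other genes linked to the pathway, 7 were tested, 5 were higher, 0 were lower and 2 did not pass (median log2 fold change 0.41). Over all genes tested, 66.0% were called and 33.7% were higher, so the share called was near the background. SETD2, the histone methyltransferase whose mark is bound by MSH6, was higher, from 33.2 ± 1.60 to 54.5 ± 0.74 CPM (SD, n = 2 each; log2 fold change 0.72, adjusted p = 2.50e-09, edgeR quasi-likelihood test). MCM8, a helicase subunit gene, was at 0.58 on the log2 scale (adjusted p = 0.000405, edgeR quasi-likelihood test). WRN, the helicase gene on which cells with microsatellite instability are known to depend, was at 0.50 (8.39 ± 0.745 and 11.8 ± 0.717 CPM; adjusted p = 0.0143, edgeR quasi-likelihood test). MCM9, the helicase partner of MCM8, was at 0.42 (adjusted p = 0.0330, edgeR quasi-likelihood test). Only 2 of the 5 passed when wild-type replicate 1 or either library labelled knockout was left out, with WRN, MCM9 and HMGB1 losing the call. The nuclease gene FAN1 and MSH5, a meiotic MutS homologue, did not pass, and MSH4, its meiotic partner, had 0 to 22 reads per library and was too low to test.

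**Figure D4:**
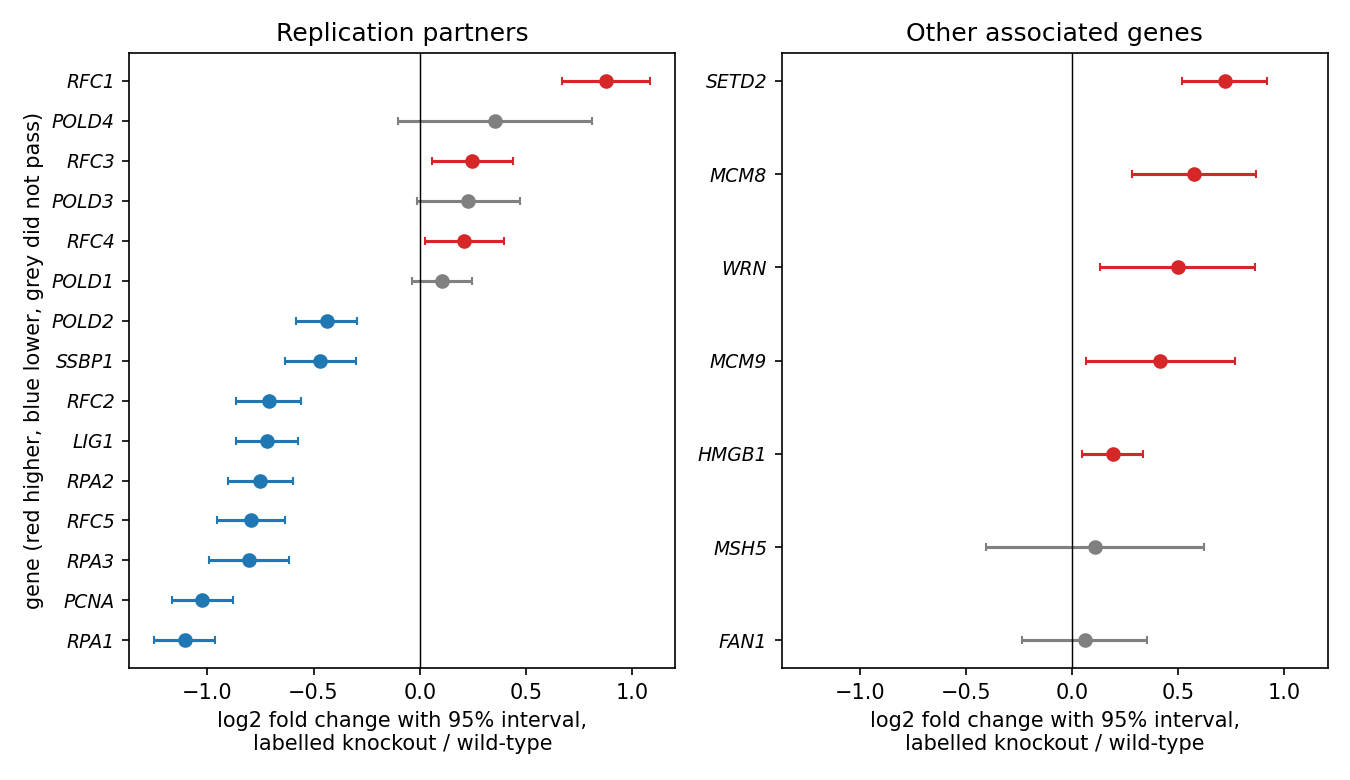
Log2 fold change with its 95% interval, labelled knockout over wild-type, for the 15 tested replication partners (left) and the 7 other tested genes linked to mismatch repair (right). Red genes passed the test as higher, blue as lower and grey did not pass. Values run from -1.11 for RPA1 to 0.88 for RFC1 on the left and from 0.06 for FAN1 to 0.72 for SETD2 on the right.

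Other repair pathways held genes called in both directions, against 66.0% of all genes tested that were called, 33.7% higher and 32.3% lower. Of 18 base excision repair genes tested, 7 were higher and 7 lower (median log2 fold change -0.06). Of 17 nucleotide excision repair genes tested, 7 were higher and 4 lower (median 0.06). All 7 non-homologous end joining genes tested were called, 4 higher and 3 lower (median 0.51). Of the 6 mismatch repair members 2 were called, but these 6 are only part of the genes of that pathway. No difference between the pathways was tested.

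The 5 nearest tested genes on either side, in chromosomal order, are given for 5 of the members. Around MLH3, 7 of 10 were higher and 2 lower (median log2 fold change 0.59), within -221.2 to 247.9 kilobases, against 33.7% higher and 32.3% lower over all genes tested. RPS6KL1, a kinase-like gene, went from 0.117 to 10.9 mean CPM, a log2 fold change of 6.41. ZC2HC1C was at 3.13 (0.209 to 1.90 mean CPM) and the growth factor gene PGF at 2.54 (0.421 to 2.47), both low in wild-type. The AP-1 gene FOS was at 2.48 (1.105 to 6.21 mean CPM). The remaining higher neighbours, DLST, NEK9 and TMED10, were at 0.99, 0.20 and 0.18. The immediate neighbours of MLH3 did not follow it: EIF2B2, a translation factor gene, was lower (log2 fold change -0.31, adjusted p = 0.00299, edgeR quasi-likelihood test), and ACYP1, 1688 bases away, did not pass (log2 fold change -0.43, adjusted p = 0.0864, edgeR quasi-likelihood test).

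Around PMS1, 5 of 10 neighbours were higher and 2 lower, from -2.30 for SLC40A1, an iron exporter gene, to 5.56 for INPP1, an inositol phosphatase gene. Around PMS2, 1 was higher, 4 were lower and 5 did not pass (median -0.22). Around MSH6, 5 were higher and 1 lower (median 0.56), and around EXO1, 5 were higher and 1 lower (median 0.48). These neighbours lay within -756.7 to 5907 kilobases of MSH6 and -4890 to 2559 kilobases of EXO1, so not all of them are close. Over all genes tested, 33.7% were higher and 32.3% lower.

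**Figure D5:**
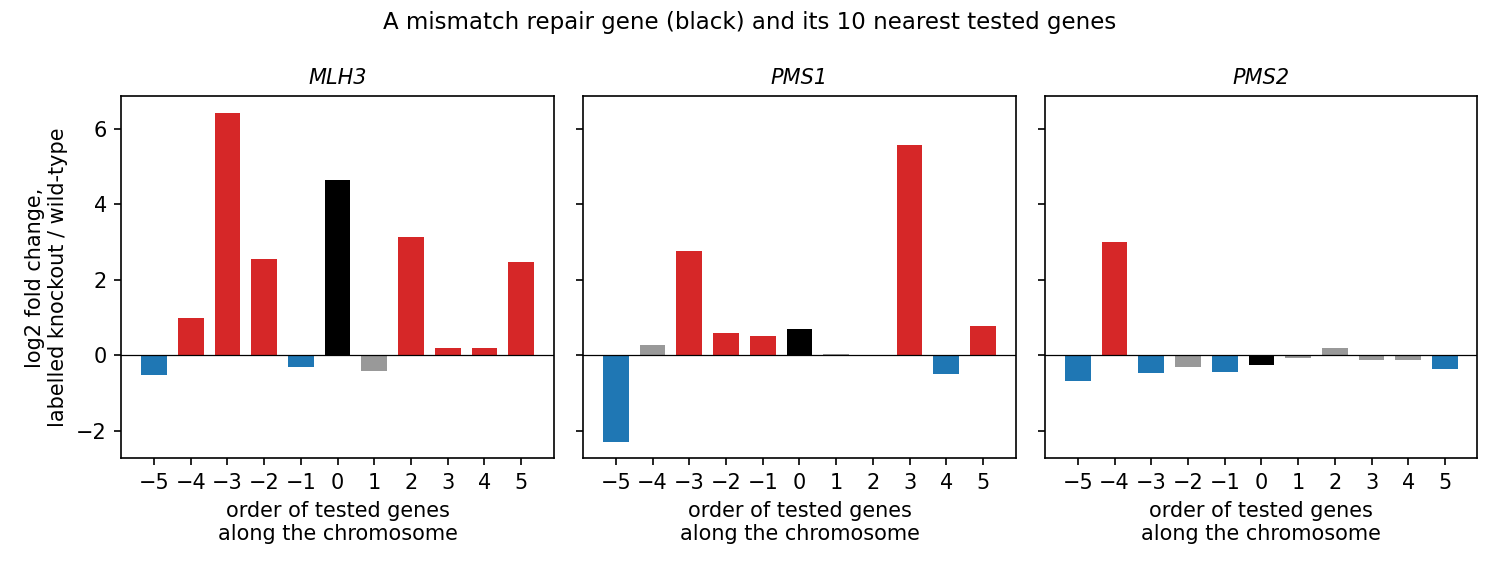
Log2 fold change of MLH3, PMS1 and PMS2 (black, position 0) and of the 5 nearest tested genes on each side in chromosomal order (red higher, blue lower, grey did not pass the test). MLH3 at 4.64 lies between EIF2B2 at -0.31 and ACYP1 at -0.43, and RPS6KL1 at 6.41 is the tallest bar.

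The genes whose levels followed each member most closely were sought among 10258 protein-coding genes of at least 5 mean CPM, as the root mean square difference of centred log2(CPM + 0.5) over the 4 libraries. For MLH3 these were COL7A1, a collagen gene (0.0678), and SUOX, sulfite oxidase (0.0749). For PMS1 they were EPM2AIP1 (0.0104) and ITPRID2 (0.0149), and for PMS2 IFITM3 (0.0130) and PLCD4 (0.0201). For EXO1 they were CDCA7L (0.00534) and G3BP1 (0.0115), for MSH6 SMIM20 (0.00845) and NT5E (0.0131), and for MSH3 BCAS2 (0.0253) and IQCG (0.0279). With 4 libraries in 2 groups such a match is a description only. The wild-type levels of MLH3, 0.344 and 0.0628 CPM, lie below the added 0.5, which therefore weighs on its matches. COL7A1 and SUOX had log2 fold changes of 3.37 and 3.63, against 4.64 for MLH3.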

How the data were processed

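RNA sequencing was analysed from 4 libraries, 2 per group. The authors deposited raw counts per gene, without normalization. The tools listed, per the submitters' processing notes and with no roles, are featureCounts 1.5.0-p3, HISAT2 2.0.5 and CASAVA 1.8. Human identifiers stand in all 58735 rows although the samples are labelled as mouse, and human genes were assumed throughout. Gene lengths and coordinates are as deposited.

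edgeR 4.0.16 (R 4.3.3) was used with TMM scaling, its default filter (10 counts minimum, 15 in total), a two-sided quasi-likelihood test without covariates and Benjamini-Hochberg adjustment over 15294 genes, at a threshold of 0.05. CPM values use TMM-scaled library sizes. Intervals are 95% and unadjusted. The test was tested on simulated data first. Replicates were not 1 library deposited again, as their chi-square per gene was 5.83 in wild-type and 2.21 in the other group.

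The members and lists were chosen with earlier results of these data known. The named genes are the members, their adjacent genes, the most changed list members and the closest patterns. RFC2 to RFC5, LIG1, POLD1, POLD2, SSBP1, MKI67, TOP2A, HMGB1, FAN1, MSH4, MSH5 and the pseudogenes were named after their values were seen. Some further genes are not reported here. DESeq2 1.42.0 and limma 3.58.1 served as alternatives.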

Additional observations from a re-analysis of the deposited data

How the results depend on the processing

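The members called higher, MLH3 and PMS1, passed under all alternatives run, and with a fold of at least 2 required only 1 was left. The count of members called lower was 1 in place of 0 with limma voom and with the replicate block, and ranged from 0 to 1 when a library was left out. The call was PMS2 in each case. Same-numbered libraries did not deviate together (correlation 0.0288), and whether they share more than a number is not given in the labels. The block left 2 members and 3 replication partners called higher. Replication partners called higher were 1 in place of 3 with no composition factor, the DESeq2 Wald test or no expression filter, and 1 to 4 when a library was left out, with 9 called lower throughout. The other linked genes called higher were 3 in place of 5 under the same 3 settings and 2 to 5 when a library was left out, with 0 to 1 called lower (MSH4, too low to test with all libraries in). Scaling moved the median of all genes by -0.0471 to 0.0368 on the log2 scale. Directions that turned were all of genes that had not passed. MSH3 went to -0.0169 with no composition factor, and ranged from -0.131 to 0.221 when a library was left out. The same ranges were -0.0175 to 0.115 for MSH6, -0.0271 to 0.235 for MSH5 and -0.207 to 0.0352 for AIMP2. The cause of these shifts was not tested. Depth limits MLH3 most, with 7 reads over the wild-type group.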
